A study of Mus musculus with 4 samples.

Results

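The genes described here are 10 members of the fibroblast growth factor (FGF) family and its receptors. They fall into 4 secreted ligands (Fgf1, Fgf2, Fgf10 and Fgf18), 3 intracellular FGF homologous factors (Fgf12, Fgf13 and Fgf14) and 3 receptors (Fgfr1, Fgfr2 and Fgfr3). Each was taken by its symbol, and each matched 1 of the 27998 genes counted. Nuclei came from right ventricles (RVs) of wild-type C57/BL6J mice collected at postnatal day (P) 21, either sham-operated or with RV volume overload (RVVO) made at P7 by puncture of a fistula between the abdominal aorta and the vena cava. There were 2 libraries in each group, and whether a library held 1 mouse or a pool is not stated. By the study's methods, neonates of either sex were randomized, and cyclosporine or saline was injected after surgery, but the labels do not give sex or injection for a library. Xist, the transcript of the inactive X chromosome, was at 1475 and 1486 counts per 1000000 (CPM) in the sham libraries and at 0.823 and 0.623 in the RVVO libraries, and Y-linked Uty was at 0.101 and 0.0259 against 322 and 317. Surgery and sex therefore cannot be told apart in these libraries, which bears first on Fgf13, an X-linked gene.

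Secreted FGFs bind receptor tyrosine kinases at the cell surface together with heparan sulfate, and the receptors relay the signal through adaptor proteins to the ERK cascade, which in turn induces its own inhibitors. Fgf1 and Fgf2 lack a classical signal peptide, Fgf10 is a mesenchymal ligand that acts mainly through the b isoform of Fgfr2, and Fgf18 acts mainly through Fgfr3 and the c isoforms. The homologous factors share the FGF fold but are not secreted. They bind the cytoplasmic tail of voltage-gated sodium channels and shape the excitability of heart muscle and neurons.

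The libraries held 53090 barcodes, of which 43210 were kept, and 37964 nuclei fell into 8 classes named from marker genes. These were 14798 cardiomyocytes (CMs), 11772 endothelial cells (ECs), 5794 fibroblasts, 2060 pericytes, 530 smooth muscle cells, 1592 macrophages, 1152 epicardial cells and 266 glia. Members of the FGF family were left out of the genes used for clustering. The kept nuclei carried 39781259, 38583727, 57095994 and 49744781 unique molecular identifiers (UMIs). Lists of 4 values run from sham 1 and sham 2 to RVVO 1 and RVVO 2. Depth per barcode was greater after RVVO, with medians of 4705 and 3378 UMIs against 2311 and 2262. The median mitochondrial share was lower after RVVO, at 0.654% and 0.535% against 1.47% and 1.38%. A CM cluster with a median of 1038.5 UMIs had 1391, 1191, 194 and 204 nuclei. Levels are UMIs of a gene per 1000000 UMIs of all nuclei of a class in a library, so fewer transcripts per nucleus and fewer transcribing nuclei cannot be told apart in them. Summed CM markers reached 65394 to 75678 CPM in CMs and 11377 to 36041 CPM in the other 7 classes, so CM transcripts were counted in every class. Each pair of libraries shared 28 to 70 barcodes.

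In the GRCm38 annotation Fgf2 spans chr3:37348346-37410108, Fgf10 chr13:118669791-118792115 and Fgf18 chr11:33117430-33147400. Fgf12 spans chr16:28160098-28753068, Fgf13 chrX:59062145-59568071 and Fgf14 chr14:123977907-124677127. Fgfr1 lies at chr8:25513654-25575718 and Fgfr3 at chr5:33721674-33737068. Fgfr2 starts at chr7:130162451, and its annotated span of 2960.9 kb overlaps 47 counted genes, 22 of them on the same strand. That length comes from 1 of 27 transcripts, and the other 26 end by 130266263, a span of 103.8 kb that overlaps 0 counted genes. How reads in the longer span were assigned was not tested. Values refer to whole genes, since UMIs were not assigned to exons, introns or isoforms. Fgf2, Fgf10 and Fgf14 overlap genes on the opposite strand, and the sources used here do not say whether strand was used in counting, so reads of these pairs could not be told apart.

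**Figure D1:**
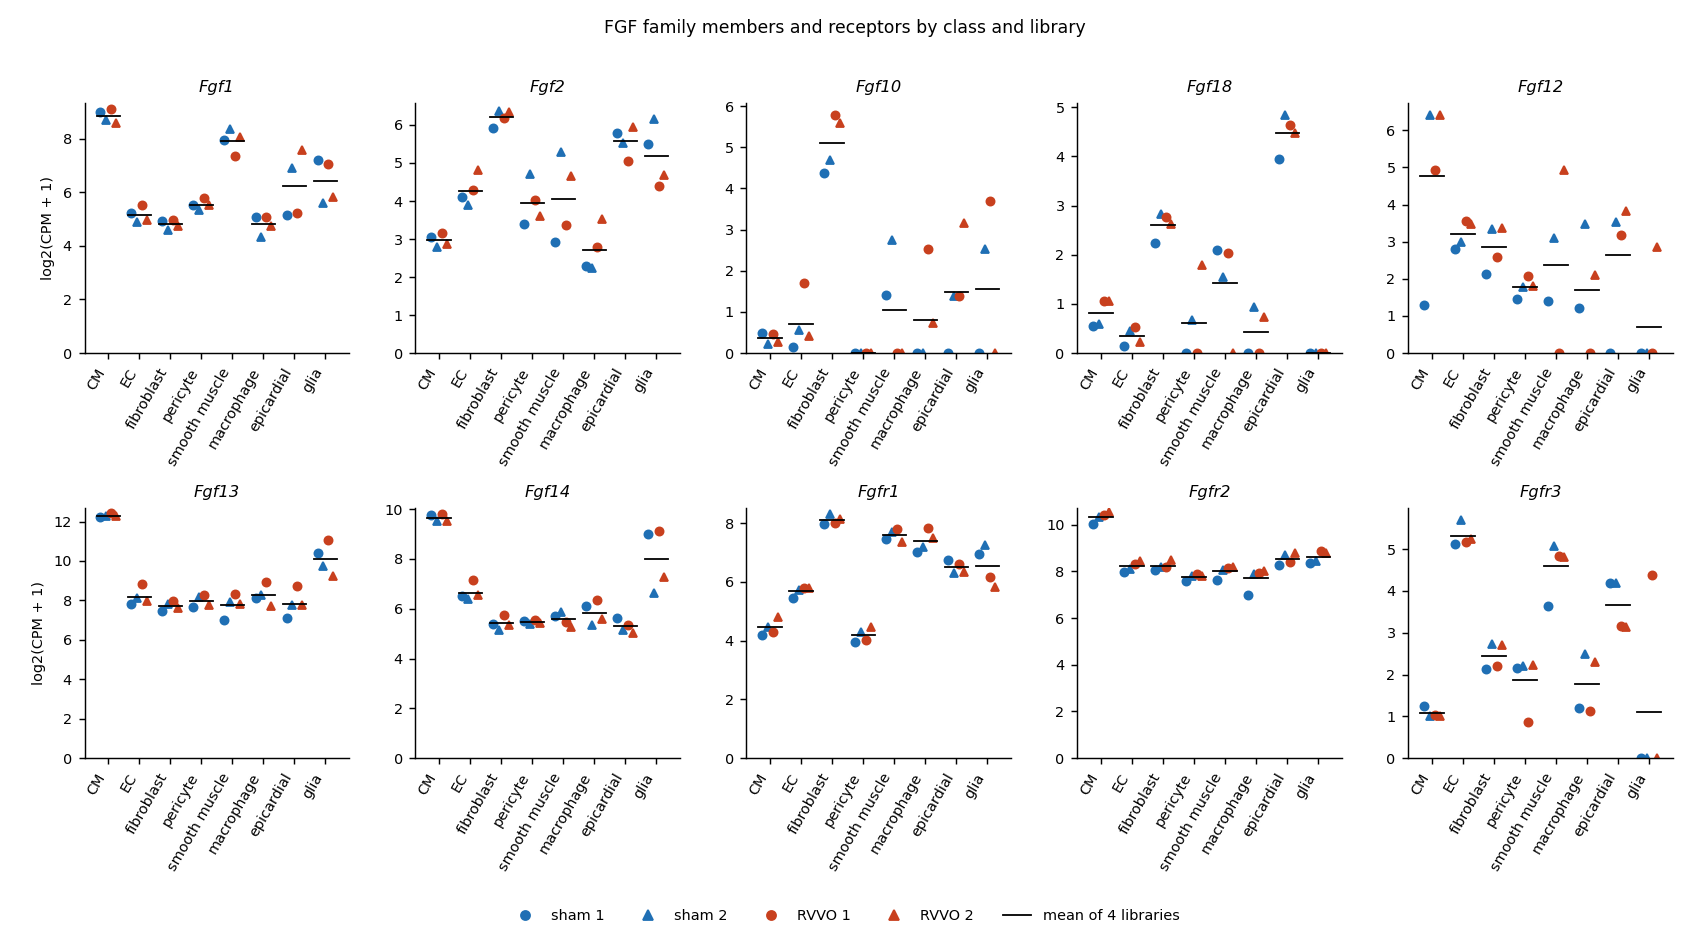
Level of each of the 10 members in the 8 classes, with 1 point per library on a log axis of CPM + 1. Fgf1, Fgf13, Fgf14 and Fgfr2 sat highest in CMs in all 4 libraries, Fgf10 and Fgfr1 in fibroblasts, Fgf18 in epicardial cells and Fgfr3 in ECs.

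Each class was set against the mean of the other 7 with edgeR's quasi-likelihood test, keeping the library as a block. Of 80 tests of members, 49 were called at an adjusted p under 0.05, 19 with a higher level and 30 with a lower one. That was 61.2%, against 43.7% over all genes and classes, so a call by itself says little about these genes. Called higher were 5 members in CMs (38.3% of all genes), 4 in fibroblasts (23.6%), 3 in epicardial cells (22.5%) and 3 in smooth muscle (13.9%). Glia had 2 (9.19%), ECs 1 (25.4%), macrophages 1 (26.8%) and pericytes 0 (18.1%). The sizes and the order of the levels are given below, with adjusted p-values from this fit.

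Among the secreted ligands, Fgf1 was a transcript of CMs, at 516, 414, 546 and 387 CPM. Its log2 level in CMs was 3.49 above the mean of the other classes (SE 0.15, edgeR adjusted p = 9.89e-21). Smooth muscle came next, at 246, 329, 163 and 264 CPM (log2 1.88, SE 0.219, adjusted p = 1.56e-08), and its range did not meet that of CMs. Per 100 UMIs of CM markers, Fgf1 had 0.570 to 0.727 UMIs in CMs and 0.813 to 1.92 in smooth muscle, so the ratio was higher in smooth muscle and the ranges did not meet. The ranges of the other 6 classes overlapped their neighbours. Glia varied between 47.3 and 145 CPM and epicardial cells between 34.4 and 190.0 CPM, in each case with sham 2 and RVVO 2 on one side and sham 1 and RVVO 1 on the other. Nuclei were also thinned to 1000 UMIs, and those with fewer were left out of the thinned values. This kept 3010, 3115, 2675 and 4595 of 3633, 3886, 2684 and 4595 CMs, so more CMs were left out in sham. After thinning, 34.2%, 30.7%, 40% and 30.9% of CMs and 22.9%, 30.1%, 16.4% and 31.1% of smooth muscle nuclei had an Fgf1 UMI.

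Fgf2, a ligand stored on matrix heparan sulfate, was highest in fibroblasts, at 59.1, 81.8, 72.3 and 79.5 CPM (log2 1.91, SE 0.154, edgeR adjusted p = 1.09e-12). Epicardial cells had 54.5, 44.8, 32.0 and 60.5 CPM (log2 1.28, SE 0.224, adjusted p = 1.33e-05), and their range overlapped that of fibroblasts. ECs had 16.1, 13.8, 18.4 and 27.3 CPM. Glia, with 4 to 15 UMIs a library, had 44.5, 70.9, 19.9 and 24.7 CPM, overlapping both fibroblasts and epicardial cells. CMs, at 5.88 to 7.94 CPM, and macrophages, at 3.68 to 10.6 CPM, had the lowest means, and smooth muscle, at 6.55 to 38.3 CPM, overlapped both of them. The mean level of Fgf2 was thus highest in fibroblasts, epicardial cells and glia.

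Fgf10 was chiefly a fibroblast transcript. It had 53, 118, 226 and 237 UMIs there, or 19.8, 24.6, 54.3 and 47.0 CPM (log2 5.23, SE 0.273, edgeR adjusted p = 1.03e-16). Fgf10 passed the filter on low counts between classes only through fibroblasts, so this adjusted p is not independent support for their rank. The mean of the other classes also takes in a class at 0 UMIs. Glia reached at most 11.9 CPM, epicardial cells 7.87 CPM and CMs 0.395 CPM, and pericytes had 0 UMIs in 4 libraries, which allows up to 0.617 CPM at 3 counts. Thinned to 1000 UMIs, 1.39%, 1.98%, 4.29% and 2.92% of fibroblasts had an Fgf10 UMI, against 0.133%, 0%, 0.0374% and 0% of CMs (unthinned fibroblasts 2.75%, 3.76%, 8.49% and 6.19%). Median depths before thinning were 2337, 2247, 3732 and 2647 UMIs in fibroblasts and 3184, 3655.5, 7763 and 4480 in CMs.

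The level of Fgf10 was uneven among fibroblasts. In the largest fibroblast cluster it was 20.5, 16.2, 52.9 and 26.3 CPM, and in a cluster led by Sntg1 it was 7.18, 7.92, 79.5 and 39.6 CPM. A set of small fibroblast clusters, led by Adam12, Slit3, Opcml and Scara5, had 67 nuclei in sham 2, 72 in RVVO 2 and 0 in sham 1 and RVVO 1. There Fgf10 was at 275 and 481 CPM, and these nuclei, 3.5% and 4.13% of the fibroblasts, held 38.1% and 44.7% of the fibroblast Fgf10 UMIs of their libraries. Adipocytes, led by Car3 and Cidec, were also found mainly in sham 2 (31 nuclei) and RVVO 2 (42 nuclei). Their Fgf10 was at 117 and 203 CPM, from 12 and 35 UMIs. When 1.6% per 1000 barcodes were removed as doublets, 1 adipocyte nucleus remained in sham 2 and 35 in RVVO 2. The number-2 libraries thus held Fgf10-rich fibroblasts that the number-1 libraries lacked.

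**Figure D2:**
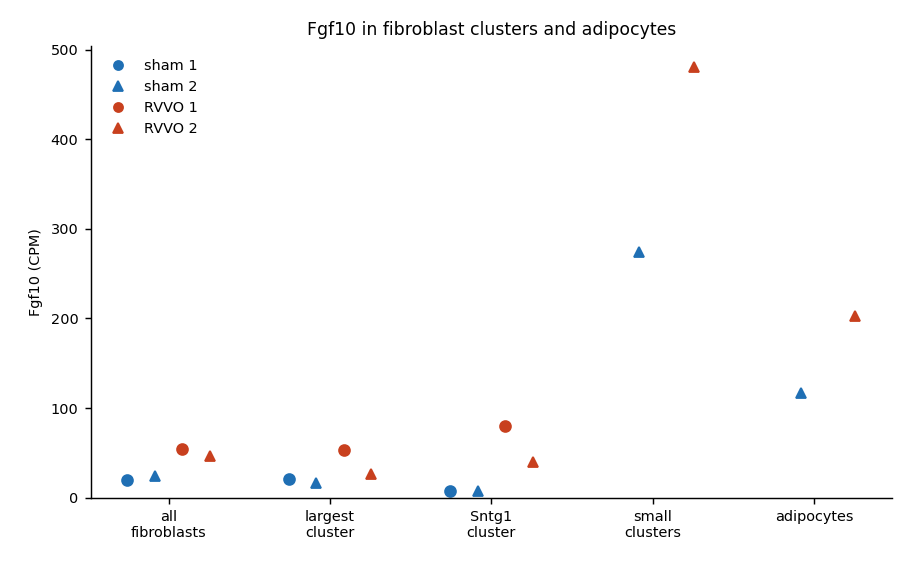
Fgf10 level in CPM per library in the fibroblast clusters and adipocytes, with 1 point per library that held such nuclei. The 1 adipocyte of RVVO 1 is not drawn. The small fibroblast clusters, seen only in sham 2 and RVVO 2, stood at 275 and 481 CPM, against 16.2 to 52.9 CPM in the largest fibroblast cluster.

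Fgf18 was highest in epicardial cells, although Fgf1 and Fgf2 had higher mean levels there. Epicardial nuclei had 5, 34, 15 and 35 UMIs, or 14.4, 27.7, 24.0 and 21.2 CPM (log2 5.10, SE 0.349, edgeR adjusted p = 1.08e-13). Fgf18 passed the filter on low counts only through epicardial cells, so this adjusted p is not independent support for their rank. The mean of the other classes also takes in a class at 0 UMIs. Fibroblasts came second, at 3.74, 6.06, 5.76 and 5.16 CPM (log2 2.63, SE 0.399, adjusted p = 1.64e-06), apart from the epicardial range above and from all other classes below. CMs had 7, 9, 25 and 27 UMIs, or 0.46 to 1.09 CPM. Glia had 0 UMIs in all 4 libraries, which allows up to 3.44 CPM.

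Among the intracellular factors, Fgf13 had 4816, 4887, 5445 and 5033 CPM in CMs, a log2 of 4.60 above the other classes (SE 0.108, edgeR adjusted p = 5.81e-28). Glia came second at 1334, 842, 2158 and 593 CPM (log2 1.52, SE 0.146, adjusted p = 2.87e-10), and the other 6 classes lay between 129 and 484 CPM. The glial call held in 9 of 10 recomputations with other settings or a library left out. Across them its log2 went down to 0.296, and the highest edgeR adjusted p was 0.547. Thinned to 1000 UMIs, 83.8%, 89%, 93.5% and 93.1% of CMs had an Fgf13 UMI. Without thinning, over all CMs including those under 1000 UMIs, these were 81.2%, 85.8%, 97.4% and 97.8%. In pericytes, taken as a class outside muscle, 18.8%, 22.8%, 23.6% and 15.8% did. Glia had 29.9%, 33.7%, 34.2% and 30.4%, and lymphatic ECs, a subclass of ECs, 34.9%, 41%, 46.1% and 37.9%.

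The CM markers moved with part of this pattern. Their summed level in glia was 30352, 18397, 36041 and 20398 CPM, high in the same 2 libraries as Fgf13, and the part of free CM RNA in the glial Fgf13 level was not tested. Fgf13 had 6.73 to 7.70 UMIs per 100 CM-marker UMIs in CMs, 2.91 to 5.99 in glia and 1.06 to 2.23 in all ECs, but 3.93 to 6.96 in lymphatic ECs. In that subclass Fgf13 was at 616, 756, 857 and 814 CPM, 3.24 to 4.60 times its capillary EC level, while the CM markers were at 15650, 10860, 12476 and 12825 CPM, below those of all ECs in each library. Lymphatic ECs numbered 88, 89, 90 and 66 nuclei.

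Fgf14 was likewise highest in CMs, at 859, 725, 893 and 742 CPM (log2 4.16, SE 0.11, edgeR adjusted p = 1.17e-26). In glia it was 513, 99.3, 556 and 155 CPM (log2 2.0, SE 0.185, adjusted p = 1.33e-10). That call turned to a log2 of -0.92 in sums over nuclei thinned to 1000 UMIs, where 5.19%, 2.25%, 0% and 4.35% of glial nuclei had an Fgf14 UMI, so the glial call depends on the thinning. ECs, at 91.3, 82.8, 139.6 and 91.9 CPM, overlapped glia and lay above the remaining classes.

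Fgf12 had 1.45, 84.5, 29.8 and 84.5 CPM in CMs (log2 3.72, SE 0.329, edgeR adjusted p = 3.31e-12), a spread wide enough that the range of CMs overlapped those of other classes. That spread followed the number of nuclei of 1 small CM cluster, led by Ryr3, Kcnj3, Chrm2 and Tbx5, with 1, 129, 23 and 165 nuclei (0.0275%, 3.32%, 0.857% and 3.59% of CMs). Its nuclei also had the atrial light chain gene Myl4 at 473, 472 and 608 CPM in sham 2, RVVO 1 and RVVO 2, against 0 to 50.7 CPM in the other CM clusters. Fgf12 was at 2251, 2984 and 2731 CPM in those 3 libraries, and the cluster carried 90.6%, 91.5% and 95.4% of the CM Fgf12 UMIs. In the bulk of CMs, meaning those outside this cluster and a second small one led by Sema3a, Fgf12 was at 0.75, 4.28, 0.677 and 3.34 CPM, and the class contrast without both clusters was -0.57.

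The same cluster set the homologous factors against each other. Relative to the bulk of CMs, its Fgf12 was 526 to 4408 times higher, its Fgf14 1.51 to 3.53 times higher (2094, 1199 and 1683 CPM) and its Fgf13 lower, at 0.376 to 0.523 of the level (1884, 2205 and 2674 CPM). At 1000 UMIs, 72.9%, 73.9% and 82.4% of its nuclei had an Fgf12 UMI, against 0.137%, 0.445%, 0.0391% and 0.581% of the bulk of CMs. These ratios compare clusters of nuclei from the same libraries and are given without a test.

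The second small CM cluster, led by Mpped2, Sema3a, Slit2 and Ephb1, had 95, 64, 97 and 129 nuclei (2.61%, 1.65%, 3.61% and 2.81% of CMs). Its Fgf14 was at 4069, 4528, 3520.0 and 3698 CPM, 4.44 to 7.62 times the level of the bulk of CMs (744, 594, 793 and 635 CPM), and it held 12.3% to 16.4% of the CM Fgf14 UMIs. In 90.5%, 92.2%, 89.7% and 93.8% of its nuclei at 1000 UMIs an Fgf14 UMI was found, against 33.8%, 29.7%, 38.5% and 33.7% of the bulk of CMs. Fgf1 was also higher there, at 882, 728, 912 and 632 CPM (1.63 to 1.76 times), as was Fgf2, at 34.3, 38.0, 20.8 and 22.9 CPM. Fgf13, at 4223, 4333, 4389.6 and 4901 CPM, was at 0.796 to 0.959 of its level in the bulk of CMs. Fgf12 was at 20.9, 193, 53.9 and 29.5 CPM. Fgf14 and Fgf12 were thus higher than in the bulk of CMs in both small clusters, whereas Fgf1, higher in this one, was at 0.460 to 0.600 of the bulk level in the cluster led by Kcnj3.

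**Figure D3:**
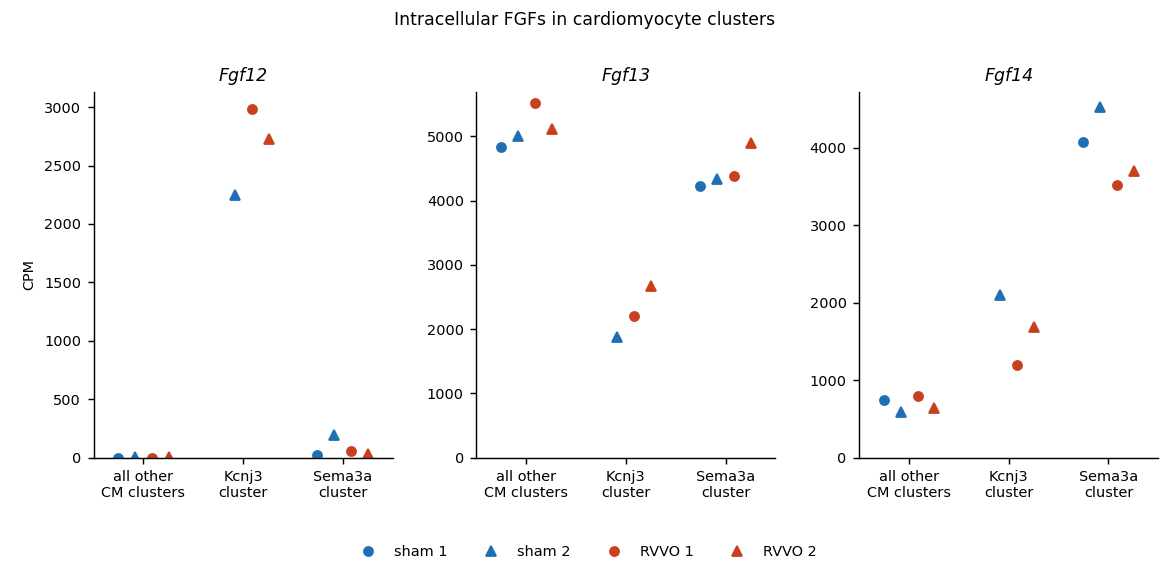
Levels of Fgf12, Fgf13 and Fgf14 in CPM in 3 sets of CM clusters, with 1 point per library on a linear axis. No point is drawn for sham 1 in the cluster led by Kcnj3, where it had 1 nucleus. Fgf12 stood at 2251 to 2984 CPM in the cluster led by Kcnj3 and at 0.677 to 4.28 CPM in the bulk of CMs, Fgf14 was highest in the cluster led by Sema3a, and Fgf13 was lowest in the cluster led by Kcnj3.

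Among ECs, Fgf14 marked the endocardial subclass, at 533, 489, 399.6 and 243 CPM. This was 6.97 to 13.5 times its level in capillary ECs, which stayed between 34.9 and 48.3 CPM. Endocardial ECs had 1.88 to 4.65 Fgf14 UMIs per 100 CM-marker UMIs, more than the 0.998 to 1.21 of CMs themselves, and capillary ECs had 0.208 to 0.271. With nuclei thinned to 1000 UMIs, 31%, 26.4%, 22% and 15.2% of endocardial ECs and 4.11%, 4.21%, 6.58% and 3.58% of capillary ECs had an Fgf14 UMI. Fgf12 instead stood out in lymphatic ECs, at 169, 48.9, 122 and 118 CPM, against 0, 4.38, 0.833 and 6.89 CPM in capillary ECs, which rest on 0, 16, 1 and 16 UMIs. These ratios between subclasses are a description, without a test.

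**Figure D4:**
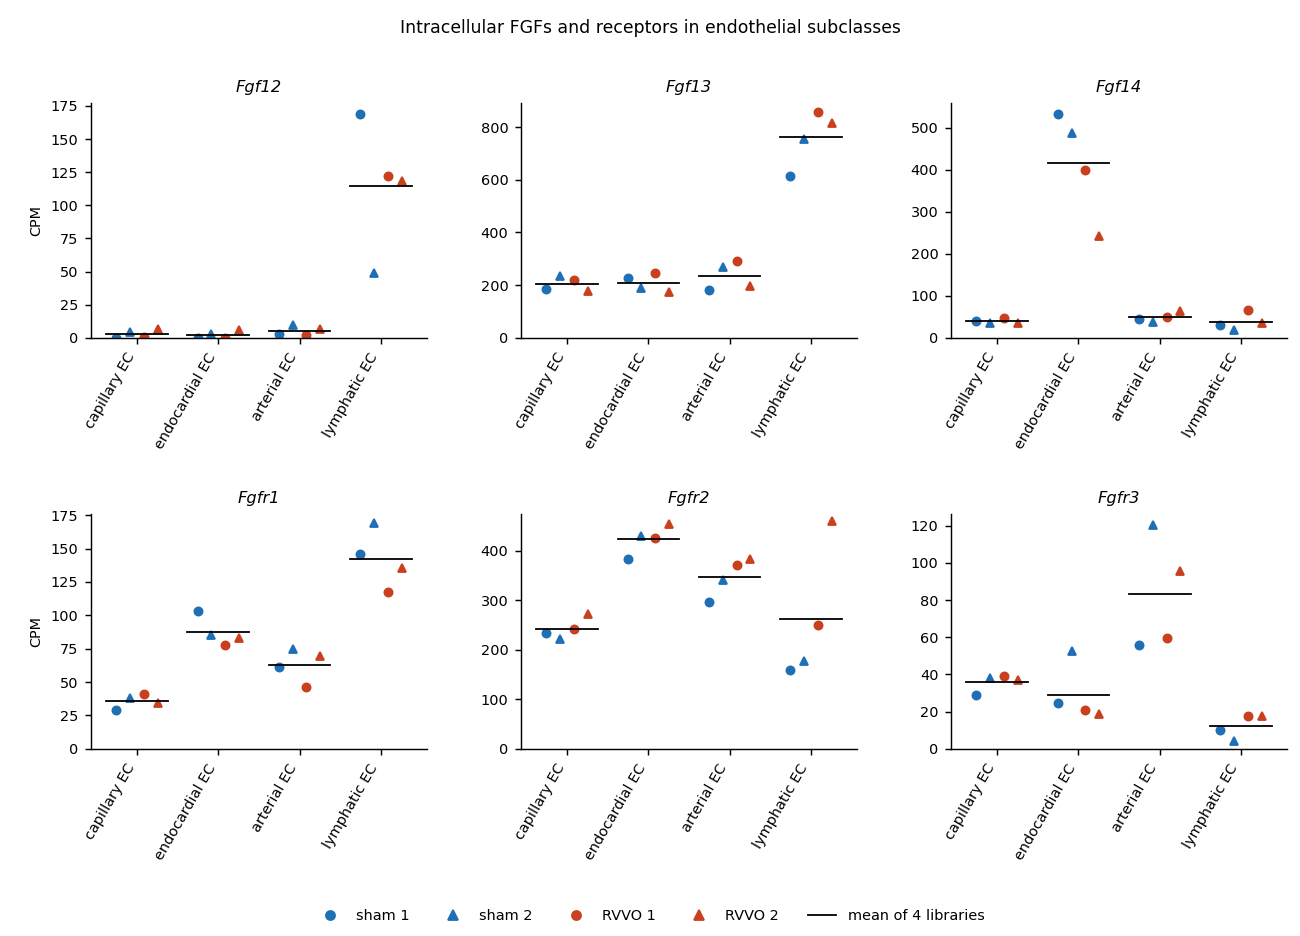
Levels of members in capillary, endocardial, arterial and lymphatic ECs in CPM, with 1 point per library on a linear axis. Fgf14 was highest in endocardial ECs (243 to 533 CPM), Fgf12 and Fgf13 in lymphatic ECs, and Fgfr3 reached 56.0 to 121 CPM in arterial ECs.

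Among the receptors, Fgfr2 was highest in CMs, at 1039, 1300.4, 1381 and 1482 CPM (log2 2.74, SE 0.063, edgeR adjusted p = 3.31e-28). The other 7 classes lay between 127 and 465 CPM, each overlapping its neighbour, with glia at 331, 349.9, 465 and 445 CPM and epicardial cells at 313, 419, 334 and 447 CPM at the upper end. Thinned to 1000 UMIs, 53.9%, 65.3%, 67.2% and 72.6% of CMs and 12.5% to 19.4% of macrophages had an Fgfr2 UMI. Fgfr2 had 1.46 to 2.27 UMIs per 100 CM-marker UMIs in CMs, 1.19 to 2.08 in ECs and 2.04 to 3.68 in epicardial cells. Library by library, the ratio in epicardial cells was above that in CMs and the ratio in ECs below it, and the part of free CM RNA in the levels outside CMs was not tested. Within CMs it was lower in both small clusters, at 463, 505 and 415 CPM in the cluster led by Kcnj3 (0.272 to 0.359 of the bulk) and at 0.587 to 0.663 of the bulk in the cluster led by Sema3a.

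Fgfr1 was highest in fibroblasts, at 249, 313, 255 and 278 CPM (log2 1.91, SE 0.0985, edgeR adjusted p = 7.38e-18), followed by smooth muscle at 175, 207, 222 and 164 CPM (log2 1.42, SE 0.138, adjusted p = 2.9e-10). Macrophages had 129, 145, 228 and 181 CPM (log2 1.16, SE 0.12, adjusted p = 3.29e-10), overlapping smooth muscle. CMs, at 17.4, 21.2, 18.7 and 27.3 CPM (log2 -1.59), and pericytes, at 14.6 to 21.1 CPM (log2 -2.54, SE 0.185, adjusted p = 1.33e-13), were lowest and overlapped each other. ECs as a whole had 42.9 to 54.1 CPM, but lymphatic ECs had 146, 169, 117 and 136 CPM, 2.88 to 5.03 times the capillary level. Endocardial ECs were also above capillary ECs, by 1.90 to 3.56 times. At 1000 UMIs, 21.5%, 24.8%, 20.1% and 22.7% of fibroblasts and 1.33% to 2.87% of CMs had an Fgfr1 UMI.

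Fgfr3 was highest in ECs, at 34.1, 50.9, 34.8 and 36.8 CPM (log2 2.93, SE 0.155, edgeR adjusted p = 1.04e-17). Its mean in ECs, 39.1 CPM, was still below those of Fgfr1 (50.8 CPM) and Fgfr2 (297 CPM). Arterial ECs had 56.0, 121, 59.7 and 95.7 CPM, 1.53 to 3.14 times the capillary level, and endocardial ECs 24.5, 52.6, 20.7 and 19.0 CPM. Lymphatic ECs were at 0.116 to 0.473 of the capillary level. Smooth muscle followed at 11.5, 32.5, 27.8 and 26.9 CPM (log2 2.09, SE 0.34, adjusted p = 9.1e-06), below ECs in every library, and epicardial cells had 17.2, 17.1, 8.0 and 7.87 CPM. CMs had the lowest mean, at 0.998 to 1.38 CPM, and overlapped macrophages. The 3 receptors thus had their highest levels in 3 different classes.

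Likeness in distribution was measured as Pearson's r of mean log2(CPM + 1) over the 8 classes, among 14116 genes. Fgf13 was like Mlip and Asb15, Fgf1 like Pip5k1bos (0.98), Ky and Rcan2, and Fgf14 like Plin5, Dusp18 and Slk. Fgf10 was most like Tmem178b, Gria4 and Wisp2, Fgf18 like Smo, Slc7a3 and Trpm6, and Fgf2 like Fkbp10, Glis2 and Gpr63. Fgf12 was most like Hand2, Fn3k and Tbc1d22b. Fgfr1 was closest to Ypel1, Dlgap4 and Vps37c, Fgfr2 to Tmem106b, Zfp385b and Acad10, and Fgfr3 to AU021092, Gclm and a gene known only by a clone name. The 8 points share the same 4 libraries, and the r values are given as a description.

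RVVO was then compared with sham within each class, again by the quasi-likelihood test of edgeR and on sums per library. Over the 8 classes and 4 EC subclasses, 0 of 85 member tests were called at an adjusted p under 0.05, where 0.167% of all genes were called, and 1 was called by DESeq2, where 0.507% of all genes were. At an unadjusted p under 0.05 there were 10 of 85, against 6821 of 116533 tests of all genes. The RVVO libraries both exceeded the sham libraries in 20 tests (23.5%, all genes 19.6%) and below them in 8 (9.41%, all genes 14.4%), shares near the background. With 2 libraries a group, values had to be read beside this background, and no member changed by the test.

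**Figure D5:**
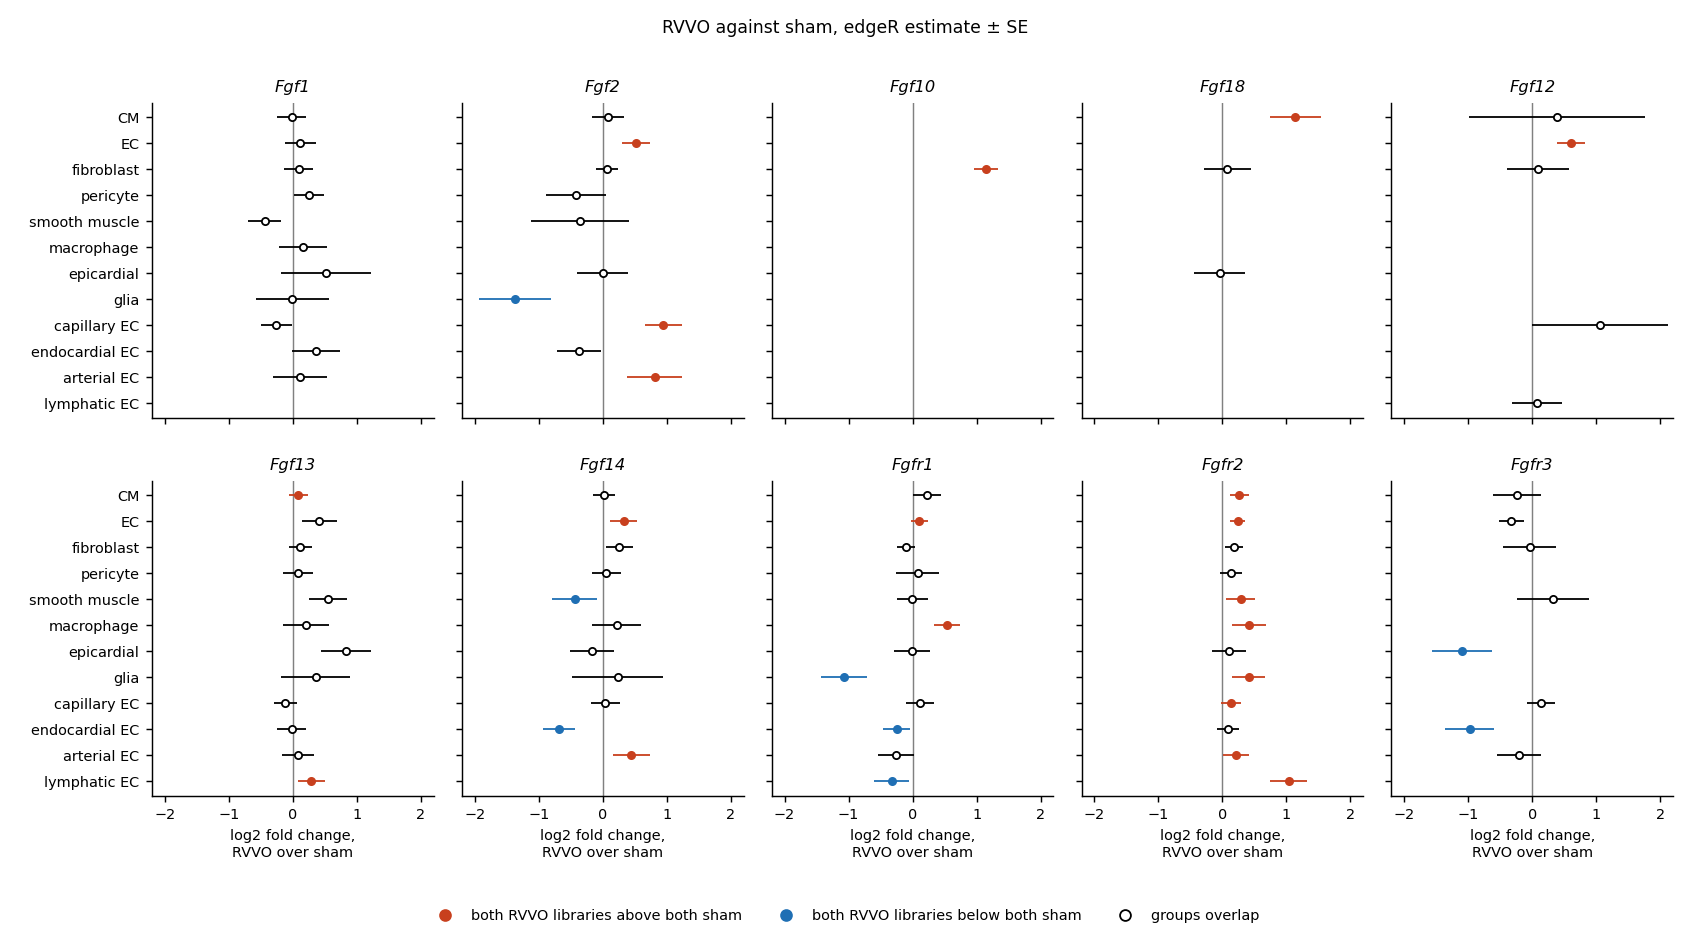
Log2 fold change of RVVO over sham for each member and class from edgeR, with bars for the standard error. All 85 adjusted p-values were above 0.05, and Fgf10 in fibroblasts (1.14) had the lowest, 0.216.

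Fgf10 in fibroblasts had the lowest adjusted p. The sham libraries were at 19.8 and 24.6 CPM and the RVVO libraries at 54.3 and 47.0 CPM, a log2 fold change of 1.14 (SE 0.187, unadjusted p = 0.000465, edgeR adjusted p = 0.216; 0.092% of genes were called in fibroblasts). The groups did not overlap. DESeq2 called it (adjusted p = 0.0442), as did edgeR with no filter on low counts (3.58e-05) and without sham 1 (0.0480) or sham 2 (0.0160). It was not called without RVVO 1 (log2 1.01, adjusted p = 0.565) or RVVO 2 (log2 1.27, adjusted p = 0.284), or with the largest fibroblast cluster alone (log2 1.10, SE 0.361, adjusted p = 0.933). Against CMs, the RVVO effect on Fgf10 in fibroblasts differed by 1.03 (edgeR adjusted p = 0.84). Fgf10 had only 6, 3, 9 and 5 UMIs in CMs, too few for this comparison to decide whether the effects differ. The Fgf10-rich small clusters, seen only in sham 2 and RVVO 2, held 38.1% and 44.7% of the fibroblast Fgf10 UMIs there. In the largest cluster Fgf10 was at 20.5, 16.2, 52.9 and 26.3 CPM. The part of cluster makeup in the fibroblast difference was not tested.

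Among the other ligands, Fgf2 was higher in both RVVO libraries in ECs (log2 0.52, edgeR adjusted p = 0.475). In capillary ECs it was at 16.1, 13.7, 20 and 37.0 CPM (log2 0.95, SE 0.284, unadjusted p = 0.00776, adjusted p = 0.385), a difference that fell to 0.41 without RVVO 2. In glia, which numbered 79, 103, 38 and 46 nuclei, Fgf2 was at 44.5, 70.9, 19.9 and 24.7 CPM (log2 -1.37, adjusted p = 0.651). Fgf18 in CMs was at 0.46, 0.499, 1.08 and 1.09 CPM (log2 1.14, SE 0.403, adjusted p = 0.843), from at most 27 UMIs a library. Fgf1 in CMs overlapped between the groups (log2 -0.019).

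Of the intracellular factors, X-linked Fgf13 had a higher mean in RVVO in all 8 classes, by a log2 of 0.083 to 0.83. These classes share the same 4 libraries, and no share of all genes is given for this count. Only in CMs were the groups free of overlap, and 20.9% of all genes lay that way there. The CM difference was 0.086 (SE 0.146, edgeR adjusted p = 0.955). The EC difference was 0.41 (edgeR adjusted p = 0.719), but the subclasses of ECs went both ways. Fgf13 differed by -0.12 in capillary, -0.017 in endocardial, 0.083 in arterial and 0.29 in lymphatic ECs. In all ECs it was at 224, 279, 456 and 252 CPM. ECs outside these subclasses included a cluster led by haemoglobin genes, with 39, 60, 659 and 43 nuclei. Another, led by Rbm20, Cacna1c and other CM genes, had 2, 1, 19 and 1 nuclei. The part of these clusters in the EC value of Fgf13 was not tested. Fgf14 in endocardial ECs was lower in both RVVO libraries, at 399.6 and 243 CPM against 533 and 489 CPM (log2 -0.69, SE 0.249, unadjusted p = 0.0206, adjusted p = 0.931). Without RVVO 1 this was -1.12 (adjusted p = 0.0129) and without RVVO 2 -0.35, so the size turned on RVVO 2. In all ECs Fgf14 was higher in both RVVO libraries (log2 0.33, adjusted p = 0.710), while endocardial nuclei made up 7.18%, 6.22%, 14.4% and 23.6% of ECs, and in capillary ECs it differed by 0.040. The part of that makeup in the EC value was not tested. Fgf14 and Fgf12 in CMs overlapped between the groups (log2 0.020 and 0.38), Fgf12 with an SE of 1.37. In ECs Fgf12 was at 5.93, 7.03, 10.7 and 10.2 CPM (log2 0.60, SE 0.222, edgeR unadjusted p = 0.0300, adjusted p = 0.396). Both RVVO libraries were higher, as for 29.2% of all genes in ECs. Lymphatic nuclei made up 2.36%, 2.24%, 4.71% and 3.06% of ECs, and the part of that share in the Fgf12 value was not tested.

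For the receptors, Fgfr2 had a higher mean in RVVO in all 8 classes, by a log2 of 0.10 to 0.42, and without overlap between the groups in CMs, ECs, smooth muscle, macrophages and glia, where 20.9%, 29.2%, 17.2%, 19.9% and 18.3% of all genes lay that way. The classes come from the same 4 libraries, and the groups also differ in depth and mitochondrial share. The part of these in the Fgfr2 values was not tested. In CMs the difference was 0.27 (SE 0.152, edgeR adjusted p = 0.897) and in ECs 0.24 (adjusted p = 0.568), and neither was called. In lymphatic ECs Fgfr2 was at 159, 178, 250.2 and 459.6 CPM (log2 1.03, SE 0.292, unadjusted p = 0.00247, adjusted p = 0.320), and at 0.59 without RVVO 2. Fgfr1 was higher in both RVVO libraries in macrophages (log2 0.54, unadjusted p = 0.0292) and lower in both in glia, at 121, 151, 71.5 and 55.6 CPM (log2 -1.07, unadjusted p = 0.0152, adjusted p = 0.540). Fgfr3 was lower in both RVVO libraries in endocardial ECs (log2 -0.97) and epicardial cells (log2 -1.09), and neither was called. In ECs against CMs, fibroblasts against CMs and fibroblasts against ECs, 0 of 29 member differences in the RVVO effect were called by edgeR, where 0.26% of all genes were, and 0 had an unadjusted p under 0.05.

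A list of 76 other genes of the pathway gave the setting of these members. Of 15 other FGF ligands, only Fgf7 and Fgf9 passed the filter on low counts between classes. Fgf7, which like Fgf10 acts on the b isoform of Fgfr2, was higher in fibroblasts (log2 3.70, edgeR adjusted p = 2.8e-11), and Fgf9 in epicardial cells (log2 3.02, adjusted p = 2.4e-10) and CMs (log2 1.78). Of the sodium channel genes, whose products bind the homologous factors, Scn3a was higher in pericytes (log2 5.17) and smooth muscle (log2 3.85) and Scn8a in glia (log2 5.24). Of 4 channel partners tested, 1 was called higher in CMs and 3 lower, where all genes had 38.3% in each direction. In pericytes 3 were called higher (18.1% of all genes) and in glia 2 (9.19%). ECs, fibroblasts, smooth muscle and macrophages had 1 each, and epicardial cells 0. Among co-receptors and adhesion partners, Cdh2 (log2 3.43) and Flrt1 (log2 3.08) were higher in CMs, Flrt2 in epicardial cells (log2 5.20) and Ncam1 in glia (log2 5.39).

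Genes of heparan sulfate and FGF carriers were higher in epicardial cells in 10 of 17 tested and in fibroblasts in 8 of 17, where 22.5% and 23.6% of all genes were called higher. The number was 6 in smooth muscle (13.9% of all genes), 5 in pericytes (18.1%) and 4 in glia (9.19%). It was 4 in macrophages (26.8%), 4 in CMs (38.3%) and 3 in ECs (25.4%). Sulf1, which removes 6-O-sulfate from heparan sulfate, led in epicardial cells and fibroblasts (log2 4.10 and 2.76), and in CMs it was lower (log2 -3.65). Of 11 feedback inhibitors and targets of the pathway, 10 were called higher in pericytes and 1, Dusp5, lower, where 18.1% of all genes were called higher there. Among them were Dusp4 (log2 2.76), Spry4 (log2 2.29, at 25.0, 37.4, 34.1 and 49.6 CPM), Etv1 (1.48), Spry2 (1.32) and Spry1 (1.28). Sprouty and dual-specificity phosphatase proteins restrain ERK signalling from many receptor tyrosine kinases besides those of FGF. In CMs 1 of these 11, Dusp5, was called higher and 9 lower, where all genes had 38.3% in each direction. Pericytes and CMs thus had opposite directions for most of these genes. Each of these contrasts has the other class in its mean, so the directions are not independent.

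Between RVVO and sham, edgeR called 0 of 452 tests of this list over the classes and subclasses, 36 had an unadjusted p under 0.05, and DESeq2 called 2. The lowest p-values in ECs belonged to Sulf1, at 111, 142, 231 and 213 CPM (log2 0.73, adjusted p = 0.116), and to its relative Sulf2, at 17.9, 24.2, 41.1 and 39.3 CPM (log2 0.85, adjusted p = 0.121). In CMs they were those of Gpc6, a cell surface heparan sulfate carrier (log2 -0.73), Hs6st2 (log2 -1.16) and the ligand gene Fgf16 (log2 0.63). In epicardial cells Fgfbp1, an FGF carrier, had 0, 0, 8 and 23 UMIs (adjusted p = 0.942). The feedback inhibitors and targets had a median log2 fold change of 0.19 in CMs, 0.019 in ECs and 0.032 in fibroblasts, with 0 called in each.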

How the data were processed

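Nuclei of 4 RV libraries (2 sham, 2 RVVO) were analysed. The UMI counts deposited by the authors are whole numbers per gene and barcode, not normalized. The file headers name Cell Ranger 5.0.0, whereas the submitters' processing notes name Cell Ranger 3.0.1, STAR, Seurat 3.0.2 and GRCm38. Whether introns and strand were used is not given in these sources.

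Filters kept barcodes of 200 genes or more whose mitochondrial share was under 10%, and the highest Scrublet scores, 0.8% per 1000 barcodes, were removed. Nuclei were clustered by Leiden (resolution 1, subdivided at 0.5) on 2000 variable genes, 30 principal components and 15 neighbours in scanpy 1.11.5 under Python 3.11.15, leaving out FGF members, pathway genes and sex-linked genes. Clusters were named from markers where the score reached 0.8, a threshold set after the clusters had been seen, and 5172 nuclei stayed unnamed. Counts were summed per library and class, for at least 20 nuclei in each library, and tested with edgeR 4.0.16 in R 4.3.3 (TMM, filterByExpr, quasi-likelihood test, Benjamini-Hochberg adjustment over all genes). Positions came from GENCODE for GRCm38. The library was the replicate. With 2 against 2, an exact permutation test cannot go below 0.3333, so none is reported. The p-values of RVVO against sham were judged against the variation between libraries of a group, which may be technical. Tests between classes and of differences in the RVVO effect held the library as a block. Their p-values were judged against the variation that remained. The procedure was tested on simulated data, in which only genes of higher counts were changed, so members with few UMIs were not covered.

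Members and lists were chosen with earlier results of these data known. The text names all 10 members in each class, pathway genes called or with the 3 lowest p-values per class, and the 3 genes most alike to each member (at least 10 UMIs in every library), except results not reported here. Examples of pathway genes between classes and the subclusters of CMs and fibroblasts were chosen after their values were seen. Alternatives were DESeq2 1.42.0, no filter on low counts, other barcode filters, thinned nuclei, each nucleus named on its own, omission of each library and a replicate block. CMs without their small clusters and the largest fibroblast cluster alone were alternatives added after seeing the data.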

Additional observations from a re-analysis of the deposited data

Results flagged for a closer look

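The RVVO effect differed between classes for 3 tests of pathway genes by edgeR's interaction term, all in heparan sulfate genes. Of all genes, 0.0327% were called in ECs against CMs and 0.758% in fibroblasts against ECs. The number of pathway tests is not given here. Gpc6 differed between ECs and CMs by a log2 of 1.47 (adjusted p = 0.0392), with 123, 198, 307 and 260 CPM in ECs and 45.6, 61.6, 31.4 and 34.4 CPM in CMs, and this was not called without RVVO 1 or RVVO 2. Between fibroblasts and ECs, Sulf2 differed by -1.10 (adjusted p = 0.00328) and Gpc6 by -0.80 (adjusted p = 0.0155). No member differed by this test. Endocardial nuclei made up 7.18%, 6.22%, 14.4% and 23.6% of ECs, and the part of that makeup in the Gpc6 and Sulf2 differences was not tested.

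For 3 members all libraries moved one way in one class and the opposite way in another, and these differences between classes were not tested. Of all genes, 29.2% in ECs and 19.9% in macrophages had both RVVO libraries above both sham libraries. Both lay below for 16.8% in glia, 16% in smooth muscle, 13.8% in endocardial ECs and 16.6% in lymphatic ECs. No share of all genes is given for opposite directions in different classes, so the count of 3 cannot be judged against it. Fgf2 was higher in RVVO in ECs (log2 0.52) and lower in glia (-1.37, from 11, 15, 5 and 4 UMIs). Fgf14 was higher in ECs (0.33) and lower in smooth muscle (-0.44, from 31, 30, 14 and 14 UMIs). Fgfr1 was higher in ECs (0.11) and macrophages (0.54) and lower in glia (-1.07). Within ECs, Fgfr1 was lower in both RVVO libraries in endocardial (-0.25) and lymphatic ECs (-0.33), while the endocardial share of ECs was 7.18%, 6.22%, 14.4% and 23.6%, and the part of that makeup in the EC value was not tested.

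Adipocytes entered no comparison, having 0, 31, 1 and 42 nuclei. In RVVO 2 their Fgf10 was at 203 CPM, Fgfr1 at 446 CPM and Fgfr2 at 816 CPM, above the 117, 321 and 340.5 CPM of sham 2. With 1.6% per 1000 barcodes removed as doublets, only 1 adipocyte nucleus of sham 2 remained, against 35 of RVVO 2.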

How the results depend on the processing

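Of 724 values recomputed under the alternatives, 670 kept their direction and their side of the threshold and 14 reversed. The count of members called between RVVO and sham, 0 by edgeR, became 1 with DESeq2, which called 0.507% of all genes. With no filter on low counts it was 2 (Fgf10 in fibroblasts and Fgf2 in capillary ECs). No share of all genes is given for settings other than the main fit and DESeq2. Leaving out a library leaves 1 library in a group, so sizes alone are given here. Fgf10 in fibroblasts then had a log2 of 1.01 to 1.29 and Fgf14 in endocardial ECs -1.12 to -0.35, and Fgf13 in epicardial cells was at 1.25 without RVVO 2. For the pathway list, 0 became 2 with DESeq2 (Sulf1 and Sulf2 in ECs) and 5 with no filter. Fgf12 in ECs minus CMs differed by -4.43 without sham 2. The labels do not say whether libraries of the same number belong together. Within classes, correlations of numbered pairs ran from -0.043 in CMs to 0.13 in glia and 0.26 in epicardial cells. In makeup, same-numbered libraries were alike for some nuclei, with 0, 67, 0 and 72 in the small fibroblast clusters and 96, 419, 124 and 513 epicardial nuclei. Whether they share a batch was not tested. With the replicate block, edgeR called 0 members and 1 pathway gene. That was Fgfbp1 in epicardial cells (log2 6.73, adjusted p = 0.00455), whose sham libraries had no UMI.

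The RVVO difference of Fgf12 in CMs ranged from -0.59 (without sham 1) to 5.25 (without sham 2) when a library was left out, with -0.51 without RVVO 2, and became -0.37 without the small clusters, and its class contrast became -0.57. The RVVO difference of Fgf13 in CMs became -0.084 with each nucleus named on its own. Under that naming the class contrasts of Fgfr3 became 0.75 in fibroblasts, 1.03 in pericytes and 0.87 in macrophages, those of Fgf14 0.96 in smooth muscle and -0.54 in glia, and that of Fgf13 in smooth muscle 0.050. Thinning turned Fgf14 in glia to -0.92 and Fgfr3 in fibroblasts to 0.043, and the latter ranged from -0.80 to 0.40 (without RVVO 1) when a library was left out. The cause of these reversals was not tested. Low UMI numbers limit Fgf10, Fgf18 and Fgfr3 most.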

Other observations

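The 5172 unnamed nuclei were in no comparison. Their Fgf10 was at 4.53, 7.41, 12.6 and 11 CPM, their Fgfr2 at 412, 334, 670.1 and 564 CPM and their Fgf13 at 1451, 511, 2383 and 1257 CPM in sham 1, sham 2, RVVO 1 and RVVO 2. Over all kept nuclei, whatever their class, Fgfr2 was at 588, 762, 868 and 952 CPM.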
